A study of Mus musculus with 8 samples.

Results

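The nuclear-encoded subunits of the oxidative phosphorylation machinery were described in the distal colon of mice given dextran sulfate sodium (DSS), a polymer that injures the colon lining when mice drink it. Members were the gene symbols whose names follow the subunit names of complexes I to V (Nduf, Sdh, Uqcr with Cyc1, Cox4 to Cox8, and Atp5). The pattern took 85 of the 55418 symbols in the table, namely 36 of complex I, 4 of complex II, 9 of complex III, 19 of complex IV and 17 of complex V, with Ndufa4 counted in complex I by its name. Of these, 79 had enough reads to be tested. Total RNA was sequenced from 8 mice of the C57BL/6 strain, aged 8 to 10 weeks, with 2 mice in each of 4 groups. ΔNFκB DSS mice carried the NAIL-ΔNFκB genotype and received 3% DSS for 4 days and then plain water for 4 days, ΔNFκB untreated mice had that genotype and no DSS, WT DSS mice were wild type on the same DSS schedule, and WT untreated mice were wild type without DSS. NAIL is a long noncoding RNA locus, and what was changed in the ΔNFκB line is not described in the labels, nor is the descent of the mice.

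Complexes I to IV sit in the inner mitochondrial membrane and pass electrons from NADH and succinate to oxygen, and complex V, the ATP synthase, uses the resulting proton gradient to make ATP. Most subunits are encoded in the nucleus, translated in the cytosol and imported, while a small set of core subunits of complexes I, III, IV and V is encoded by mitochondrial DNA. In the healthy colon, the absorptive epithelial cells depend on this machinery to oxidise butyrate made by bacteria.

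Promoter windows of 66 of the 85 members were found in the RefSeq promoter table (build GRCm38.p6, 250 bases before to 50 after the annotated start), in 71 windows. They are shown because the nuclear subunits are known for shared regulators, among them NRF1, whose known motif was searched as the letters GCGCA, then any base, then GCGC. Capitals mark matches to those NRF1 letters and, in Cox6a1, to the ETS-family core CCGGAAG, each searched on both strands. Ndufb4 (chr16:37654319-37654618, minus strand) and Sdha (chr13:74350191-74350490, minus strand) each held 3 matches to the NRF1 letters, and Uqcrc1 (chr9:108936398-108936697, plus strand) and Cox6a1 (chr5:115348909-115349208, minus strand) each held 2. The Cox7a1 window (chr7:30183921-30184220, plus strand), shown for the member with the lowest fold change after DSS, held no match to any motif searched.
Ndufb4: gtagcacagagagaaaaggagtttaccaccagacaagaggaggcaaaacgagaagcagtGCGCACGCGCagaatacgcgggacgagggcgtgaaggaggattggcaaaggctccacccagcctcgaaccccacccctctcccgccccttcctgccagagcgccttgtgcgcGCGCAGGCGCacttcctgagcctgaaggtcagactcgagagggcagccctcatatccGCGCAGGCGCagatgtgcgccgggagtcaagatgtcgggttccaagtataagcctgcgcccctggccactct
Sdha: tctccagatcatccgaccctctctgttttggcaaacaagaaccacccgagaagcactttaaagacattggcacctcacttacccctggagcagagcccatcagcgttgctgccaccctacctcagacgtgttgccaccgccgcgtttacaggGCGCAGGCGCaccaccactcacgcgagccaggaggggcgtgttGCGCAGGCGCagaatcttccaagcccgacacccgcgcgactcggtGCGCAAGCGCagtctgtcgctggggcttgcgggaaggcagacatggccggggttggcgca
Uqcrc1: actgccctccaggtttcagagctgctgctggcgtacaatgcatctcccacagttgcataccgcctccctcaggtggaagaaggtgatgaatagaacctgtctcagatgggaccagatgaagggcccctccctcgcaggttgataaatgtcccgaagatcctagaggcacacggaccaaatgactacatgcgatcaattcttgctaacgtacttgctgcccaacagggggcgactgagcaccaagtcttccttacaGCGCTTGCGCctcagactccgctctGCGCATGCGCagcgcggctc
Cox6a1: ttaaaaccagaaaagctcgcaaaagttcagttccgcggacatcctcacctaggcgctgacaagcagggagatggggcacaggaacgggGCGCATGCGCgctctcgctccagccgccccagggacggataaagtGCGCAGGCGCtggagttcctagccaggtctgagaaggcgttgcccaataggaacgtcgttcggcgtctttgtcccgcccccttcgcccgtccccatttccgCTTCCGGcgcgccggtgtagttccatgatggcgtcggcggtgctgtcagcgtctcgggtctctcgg
Cox7a1: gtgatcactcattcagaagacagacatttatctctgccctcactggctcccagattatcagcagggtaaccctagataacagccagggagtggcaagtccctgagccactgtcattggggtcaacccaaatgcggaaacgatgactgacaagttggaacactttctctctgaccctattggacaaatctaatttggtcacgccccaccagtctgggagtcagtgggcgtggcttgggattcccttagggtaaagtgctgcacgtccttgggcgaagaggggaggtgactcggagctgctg
The NRF1 letters were in 25.4% of the 71 member windows and in 4.60% of all 32851 windows in the table. The ETS core was in 22.5% of member windows and 8.86% of all windows, the YY1 letters AANATGGCG in 14.1% and 2.38%, and the ERR letters TCAAGGTCA in 2.82% and 0.423%, all searched on both strands. Members with and without the NRF1 letters had median log2 fold changes after DSS of 0.01 for the 17 tested members with them and -0.08 for the 47 without in ΔNFκB mice, and -0.67 and -0.72 in WT mice. A match describes the letters in a window and not a bound site.

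Among the members, subunits of the ATP synthase head had the highest levels per length in DSS mice. On the RPKM scale (reads per kilobase of annotated exon, scaled to library depth), Atp5a1, the catalytic-head alpha subunit of ATP synthase, averaged 318 in ΔNFκB DSS, 237 in ΔNFκB untreated, 221 in WT DSS and 259.9 in WT untreated mice. Its partner Atp5b, the catalytic beta subunit, averaged 273, 229, 182 and 278 RPKM in the same groups. Cox8a, the ubiquitous small subunit 8 of cytochrome c oxidase, was first of all members in both untreated groups, at 249 RPKM in ΔNFκB untreated and 316 RPKM in WT untreated mice. Median levels per complex in ΔNFκB DSS mice were 30.0 RPKM for complex I, 55.3 for complex II, 77.4 for complex III, 83.8 for the 13 tested members of complex IV and 48.1 for complex V. In WT untreated mice these medians were 36.6, 66.1, 103, 141 and 56.5 RPKM. Exon annotations that join long and short transcripts make such levels approximate, and Ndufb2, the lowest complex I member, had an RPKM of 1.28 to 1.75 in the group means.

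The 6 members that were not tested were paralogues with restricted expression or near-empty rows. Cox7b2 and Cox8c, both testis isoforms, and Cox6c2 were at 0 CPM in every library once counts were rounded, where CPM stands for counts scaled to library size with TMM factors. Cox8b, a heart and muscle isoform, reached at most 0.201 CPM, and Cox6a2, the heart and muscle partner of Cox6a1, at most 0.240 CPM. Cox4i2, the isoform of lung and low oxygen, ran from 0.0671 to 0.325 CPM. None of the 6 exceeded 4 counts in any library, and all were removed by edgeR's expression filter.

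The libraries held 9229637 to 16935724 counts, and levels of mice of the same group correlated at Pearson's r of 0.982 to 0.988 across genes. Sex was not in the labels, and Y-linked transcripts summed to 0 and 0 CPM in ΔNFκB DSS, 240.3 and 224 CPM in ΔNFκB untreated, 0 and 0.209 CPM in WT DSS, and 0.0797 and 219 CPM in WT untreated mice. By these transcripts 3 mice were male, namely the pair of ΔNFκB untreated mice and replicate 2 of the untreated WT mice, and 5 were female, so that DSS and sex cannot be told apart within the ΔNFκB genotype. The same confounding enters the difference of the DSS responses, and sex was also unbalanced between the untreated groups. Markers of other cells also differed between groups. The sum of 8 neutrophil markers was 78.9 and 79.7 CPM in ΔNFκB DSS, 9.15 and 1.71 CPM in ΔNFκB untreated, 320 and 421 CPM in WT DSS, and 2.55 and 2.62 CPM in WT untreated mice. The sum of 6 fibroblast markers was 623 and 526 CPM in ΔNFκB DSS, 1666 and 1639 CPM in ΔNFκB untreated, 1627 and 2442 CPM in WT DSS, and 2078 and 1133 CPM in WT untreated mice. Markers of absorptive colonocytes, 8 in all, summed to 1364 and 1211 CPM in ΔNFκB DSS, 4225 and 5703 CPM in ΔNFκB untreated, 1032 and 1238 CPM in WT DSS, and 4985 and 7367 CPM in WT untreated mice. The sum of 6 goblet cell markers was 10707 and 8890 CPM in ΔNFκB DSS, 15565 and 17267 CPM in ΔNFκB untreated, 3105 and 3889 CPM in WT DSS, and 18526 and 26159 CPM in WT untreated mice, lowest in WT DSS mice as the subunits were. Neutrophil markers were thus higher, and absorptive markers lower, in every DSS mouse than in every untreated mouse. The part of these cells in the subunit values was not tested.

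After DSS, the summed transcripts of the 5 complexes were 0.877 to 1.17 times the untreated level in ΔNFκB mice and 0.573 to 0.696 times in WT mice. Summed over the 85 members, ΔNFκB DSS libraries held 8021 and 9169 CPM and ΔNFκB untreated libraries 7812 and 8416 CPM. WT DSS libraries held 6415 and 6348 CPM, against 9258 and 10514 CPM in WT untreated libraries. The WT DSS libraries were below all 6 other libraries and the ΔNFκB groups overlapped. The mean sum in DSS mice was 1.06 times the untreated mean in ΔNFκB mice and 0.646 times in WT mice. By complex, this ratio in ΔNFκB and in WT mice was 1.02 and 0.629 for complex I, 1.04 and 0.643 for complex II, 1.09 and 0.637 for complex III, 0.877 and 0.573 for complex IV, and 1.17 and 0.696 for complex V. Abundant members weigh most in these sums. In ΔNFκB DSS and untreated mice, Atp5a1 averaged 998 and 742 CPM and Atp5b 1155 and 969 CPM. Gene by gene, the median log2 fold change of complex V in ΔNFκB mice was 0.009, with 9 members above 0 and 8 below. For complex III it was -0.15, with 4 above and 5 below, and for complex IV -0.26, with 2 above and 11 below. In whole tissue, fewer cells of a type and less RNA per cell cannot be told apart.

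**Figure D1:**
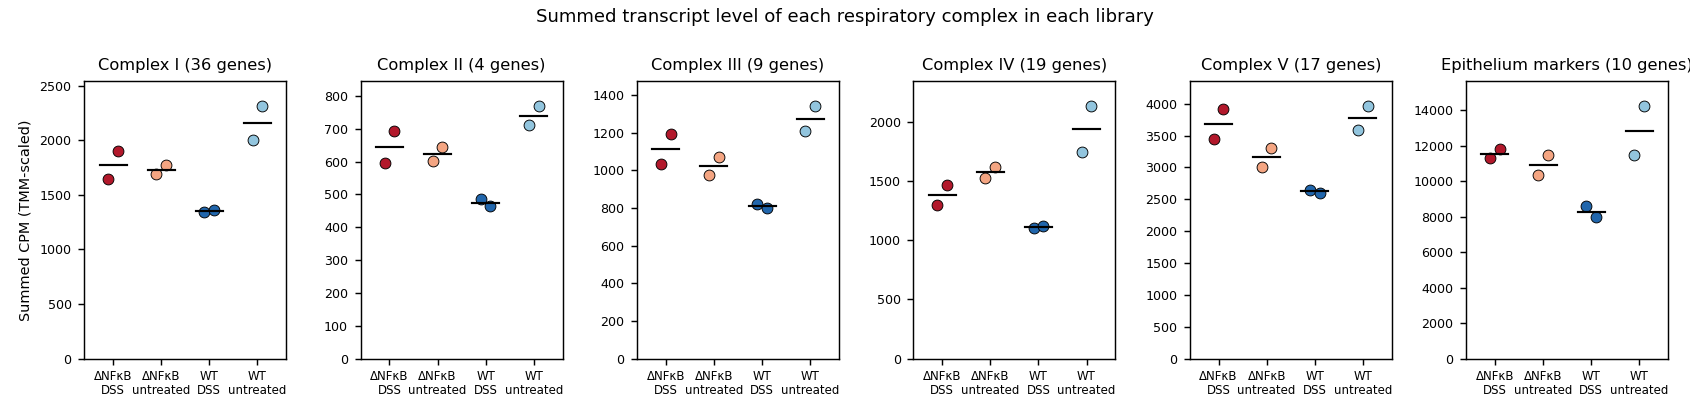
Summed CPM (vertical axes, from 0) of the genes of complexes I to V and of 10 epithelium markers in each library, with groups along the horizontal axes. Points are single mice and lines are means of 2. For each complex both WT DSS points lie below the other 6, and the same holds for the epithelium markers.

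The plot of summed levels also holds the epithelium markers Epcam, Cdh1, Krt8, Krt18, Krt19, Krt20, Cldn7, Vil1, Cdx2 and Lgals4. Their sum was 11309 and 11808 CPM in ΔNFκB DSS, 10341 and 11465 CPM in ΔNFκB untreated, 8597 and 7996 CPM in WT DSS, and 11462 and 14230 CPM in WT untreated mice. Subunit CPM per CPM of epithelium markers was 0.709 and 0.777 in ΔNFκB DSS, 0.755 and 0.734 in ΔNFκB untreated, 0.746 and 0.794 in WT DSS, and 0.808 and 0.739 in WT untreated mice. All groups overlapped in this ratio, and its DSS mean over the untreated mean was 0.998 in ΔNFκB mice and 0.996 in WT mice. Single epithelium markers differed in their log2 fold changes after DSS, from -0.36 for Epcam to 1.06 for Krt20 in ΔNFκB mice. In WT mice they ran from -0.93 to -0.09. The part of epithelium in the subunit values was not tested.

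Gene by gene, 7 of the 79 tested members rose and 6 fell after DSS in ΔNFκB mice, by edgeR's quasi-likelihood test with Benjamini-Hochberg adjustment over all 17522 genes tested and a threshold of 0.05. Over all genes tested, 16.2% were called higher and 19.2% lower in this comparison. The members' median log2 fold change there was -0.02 and that of all genes was -0.04. The groups did not overlap for 22 members that were higher after DSS and 24 that were lower, against 33.8% and 37.9% of all genes. In WT mice 65 members fell after DSS and none rose, where 18.8% of all genes were called lower and 17.2% higher. All 79 log2 fold changes in WT mice were below 0, with a median of -0.68 against 0.00 for all genes tested. The groups did not overlap for 73 of the 79 members, all lower after DSS, against 35.4% of all genes in this direction.

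The 13 calls in ΔNFκB mice rested on single libraries: 4 to 6 members were called when any 1 of the 4 ΔNFκB libraries was left out. Cox7a2l, Cyc1 and Ndufa1 were the 3 called without each of the 8 libraries in turn. With a term for sex, 4 members were called in ΔNFκB mice, among them Cox7a2l, Ndufb7 and Uqcrq of the 13, and 49 in WT mice. Only the WT untreated group held both sexes, so that term was estimated from 1 mouse of each sex. It thus carried the difference between those 2 mice, of whatever origin, over to the other groups. In WT mice the count was 43 without WT DSS replicate 1 and 45 without WT untreated replicate 2, the male. With libraries scaled by totals alone it was 46, with a median of -0.41 for members and 0.27 for all genes. With 2 mice against 2, an exact permutation test of a single gene cannot give a two-sided p below 0.333. The shares of all genes called in the fits without 1 library, which leave 1 mouse in a group, are not given here.

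The plot of both responses shows which members were called in each genotype. Cox7a1, Cox7a2l, Cox8a, Ndufa1, Ndufa7 and Ndufb11 fell in both. Atp5g1 and Ndufa10 rose in ΔNFκB mice and fell in WT mice, and Atp5a1, Cyc1, Ndufb7, Uqcrc1 and Uqcrq rose in ΔNFκB mice without passing the threshold in WT mice. A further 57 did not pass the threshold in ΔNFκB mice and fell in WT mice, and 9 passed it in neither genotype: Atp5d, Atp5k, Atp5s, Cox6b2, Ndufa2, Ndufb10, Ndufb2, Ndufs3 and Sdhc. The difference between the responses was tested by itself and is given after the complexes.

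**Figure D2:**
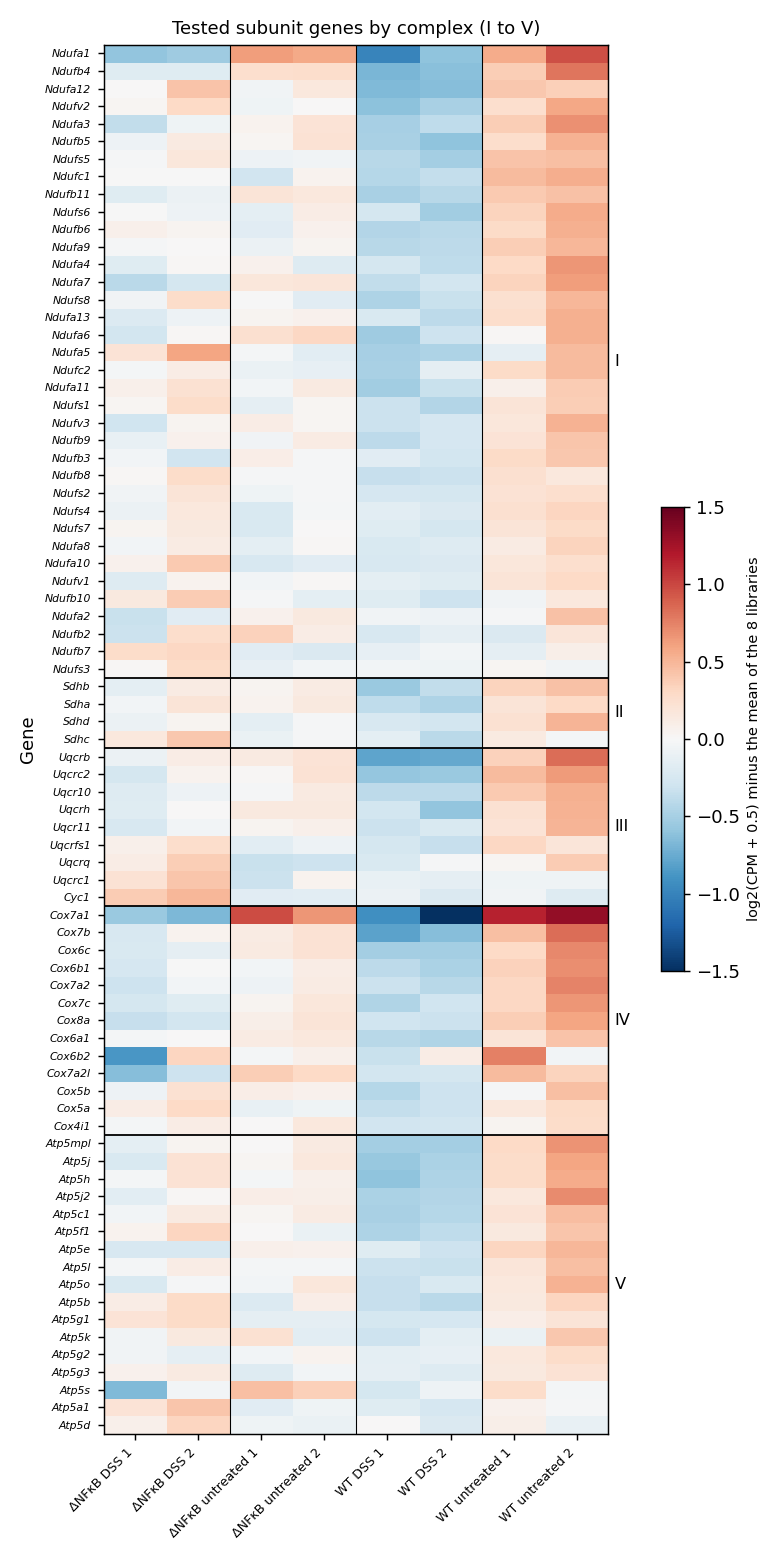
Each row is a tested member and each column a mouse; colour gives log2(CPM + 0.5) minus the mean of the 8 libraries, with the scale ending at -1.5 and 1.5. Rows are grouped by complex and ordered by the WT response, and the WT DSS columns are blue in nearly every row.

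The colour map of single mice shows complex I as the largest block. Complex I oxidises NADH and passes the electrons to ubiquinone, and its nuclear subunits form the NADH-oxidising N module, the ubiquinone-binding Q module and the proton-pumping membrane arm, or P module. In ΔNFκB mice 2 of the 36 members rose after DSS and 3 fell, both below the shares of all genes called, 16.2% higher and 19.2% lower. Of all genes, 18.8% were called lower in WT mice. In WT mice 31 of 36 fell: 9 of 10 in the N module, 5 of 6 in the Q module and 16 of 19 in the P module, with Ndufa4 outside these lists.

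Ndufa1, a small membrane-arm subunit needed for complex I assembly, had 15.2 and 15.8 CPM in ΔNFκB DSS, 36.0 and 34.6 CPM in ΔNFκB untreated, 11.4 and 15.1 CPM in WT DSS, and 34.2 and 45.6 CPM in WT untreated mice. All DSS mice were below all untreated mice. Its log2 fold change after DSS was -1.19 ± 0.19 in ΔNFκB mice (SE, n = 2 each, adjusted p = 0.00218) and -1.59 ± 0.19 in WT mice (adjusted p = 0.000777). Ndufa1 and Ndufb11 lie on chromosome X, as does Cox7b of complex IV.

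Ndufb4, a subunit of the outer membrane arm whose promoter was shown above, had 26.8 and 26.8 CPM in ΔNFκB DSS, 36.4 and 36.6 CPM in ΔNFκB untreated, 18.8 and 19.6 CPM in WT DSS, and 39.6 and 53.5 CPM in WT untreated mice. The WT DSS mice were lowest and the WT untreated mice highest. Its log2 fold change was -0.44 ± 0.15 in ΔNFκB mice, which missed the threshold (adjusted p = 0.0544), and -1.28 ± 0.16 in WT mice (adjusted p = 9e-04). Of its 75-base stretches, 35.2% also occur in other annotated genes, so its count is uncertain. Ndufb11, another membrane-arm subunit, fell by 0.31 ± 0.10 on the log2 scale in ΔNFκB mice (adjusted p = 0.048) and by 0.88 ± 0.10 in WT mice (adjusted p = 0.000797).

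Ndufv2, a core N-module subunit that carries an iron-sulfur cluster, had 99.0 and 119.8 CPM in ΔNFκB DSS, 93.2 and 97.5 CPM in ΔNFκB untreated, 63.2 and 68.9 CPM in WT DSS, and 116 and 146 CPM in WT untreated mice. The WT DSS mice were lowest. Ndufv2 had a log2 fold change after DSS of 0.20 ± 0.14 in ΔNFκB mice (adjusted p = 0.32) and -0.98 ± 0.15 in WT mice (adjusted p = 0.00199). Ndufa12, an accessory N-module subunit, had a log2 fold change of 0.18 ± 0.16 in ΔNFκB mice (adjusted p = 0.396) and of -1.05 ± 0.16 in WT mice (adjusted p = 0.00217). Ndufa7 of the same module fell in both genotypes, by 0.52 ± 0.13 in ΔNFκB mice (adjusted p = 0.0169) and by 0.82 ± 0.13 in WT mice (adjusted p = 0.00273).

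Members of complex I that rose in ΔNFκB mice were Ndufb7 and Ndufa10, both of the membrane arm. Ndufb7 had 42.8 and 44.0 CPM in ΔNFκB DSS, 31.2 and 30.3 CPM in ΔNFκB untreated, 32.3 and 34.3 CPM in WT DSS, and 32.2 and 37.4 CPM in WT untreated mice. The ΔNFκB DSS mice were above all 6 others. The log2 fold change was 0.50 ± 0.12 in ΔNFκB mice (adjusted p = 0.0139) and -0.06 ± 0.12 in WT mice (adjusted p = 0.707). Ndufa10 changed by 0.44 ± 0.13 in ΔNFκB mice (adjusted p = 0.0258) and by -0.44 ± 0.12 in WT mice (adjusted p = 0.026).

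Complex II, succinate dehydrogenase, links the citric acid cycle to the respiratory chain and is encoded wholly in the nucleus. Sdha, the flavoprotein subunit, had 267 and 313 CPM in ΔNFκB DSS, 285 and 302 CPM in ΔNFκB untreated, 209.9 and 199 CPM in WT DSS, and 315 and 337 CPM in WT untreated mice. The ΔNFκB groups overlapped and the WT groups did not, with log2 fold changes of -0.02 ± 0.12 (adjusted p = 0.924) in ΔNFκB mice and -0.67 ± 0.12 (adjusted p = 0.0044) in WT mice. The iron-sulfur subunit Sdhb fell by 0.85 ± 0.13 in WT mice (adjusted p = 0.00204), and the membrane anchor Sdhd by 0.63 ± 0.13 (adjusted p = 0.00669). Sdhc, the other anchor, had a log2 fold change of 0.35 ± 0.13 in ΔNFκB mice (adjusted p = 0.0717) and of -0.33 ± 0.13 in WT mice (adjusted p = 0.0878), neither past the threshold.

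Complex III passes electrons from ubiquinol to cytochrome c. In ΔNFκB mice 3 of 9 members rose after DSS, namely Cyc1, Uqcrq and Uqcrc1, and none fell, against 16.2% and 19.2% of all genes. In WT mice 6 of 9 fell, against 18.8% of all genes.

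Cyc1, the cytochrome c1 subunit, had 159.9 and 173 CPM in ΔNFκB DSS, 109 and 109.9 CPM in ΔNFκB untreated, 115 and 105 CPM in WT DSS, and 118 and 108 CPM in WT untreated mice. The ΔNFκB DSS mice were above all others, which lay within 105 to 118 CPM. Its log2 fold change was 0.61 ± 0.11 in ΔNFκB mice (adjusted p = 0.00357), the highest of the members there, and -0.03 ± 0.11 in WT mice (adjusted p = 0.834). Uqcrq, a small membrane subunit, rose by 0.57 ± 0.15 in ΔNFκB mice (adjusted p = 0.0201), and the core subunit Uqcrc1 by 0.44 ± 0.14 (adjusted p = 0.0391).

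Uqcrb, a small subunit near the ubiquinone site, had 83.0 and 95.4 CPM in ΔNFκB DSS, 96.3 and 101 CPM in ΔNFκB untreated, 50.8 and 51.6 CPM in WT DSS, and 112 and 158 CPM in WT untreated mice. The WT DSS mice were well below all others. Uqcrb had a log2 fold change of -0.15 ± 0.16 in ΔNFκB mice (adjusted p = 0.515) and -1.40 ± 0.17 in WT mice (adjusted p = 0.000774), with 29.1% of its 75-base stretches found in other annotated genes. Uqcrc2, the other core subunit, fell by 1.13 ± 0.14 in WT mice (adjusted p = 0.000958), while its partner Uqcrc1 changed by -0.06 ± 0.14 there (adjusted p = 0.76).

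**Figure D3:**
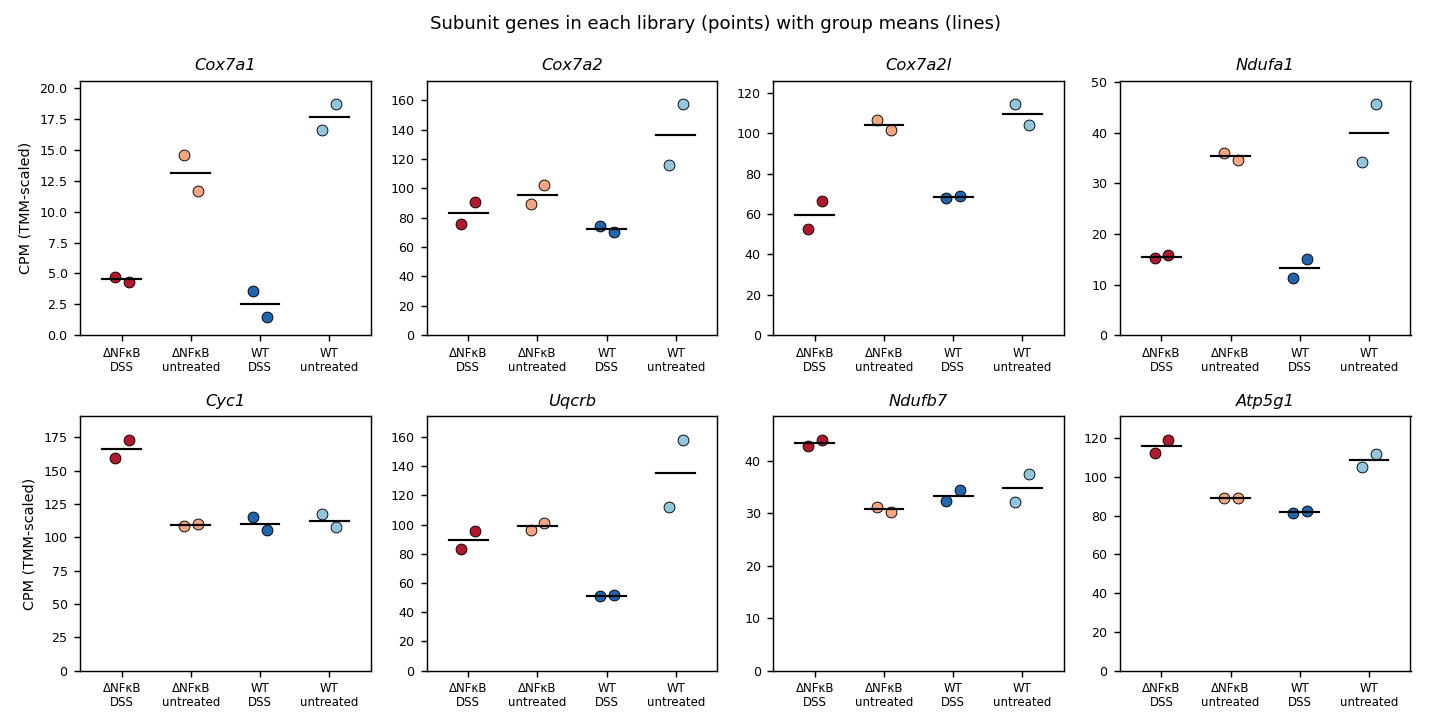
CPM from 0 (vertical axes) of 8 members in each mouse, with the 4 groups along the horizontal axes; points are mice and lines are means of 2. Cox7a1, Cox7a2l and Ndufa1 are low in DSS mice of both genotypes, Uqcrb is low in WT DSS mice, and Cyc1 and Ndufb7 are highest in ΔNFκB DSS mice.

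The plots of single members include the subunit 7a family of complex IV, cytochrome c oxidase, which reduces oxygen to water. Cox7a1, the heart and skeletal muscle isoform, had 4.71 and 4.33 CPM in ΔNFκB DSS, 14.6 and 11.7 CPM in ΔNFκB untreated, 3.57 and 1.47 CPM in WT DSS, and 16.6 and 18.7 CPM in WT untreated mice. Every DSS mouse was below every untreated mouse. The log2 fold change was -1.54 ± 0.32 in ΔNFκB mice (adjusted p = 0.00764) and -2.81 ± 0.34 in WT mice (adjusted p = 0.00086), the lowest of all members in both.

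Cox7a2, the ubiquitous partner of Cox7a1, had 75.8 and 90.8 CPM in ΔNFκB DSS, 89.2 and 102 CPM in ΔNFκB untreated, 74.6 and 70.0 CPM in WT DSS, and 116 and 157 CPM in WT untreated mice. The ΔNFκB groups overlapped and the WT groups did not. The log2 fold change of Cox7a2 was -0.20 ± 0.16 in ΔNFκB mice (adjusted p = 0.379) and -0.92 ± 0.17 in WT mice (adjusted p = 0.00439). Cox7a2l, of the same family, had 52.7 and 66.4 CPM in ΔNFκB DSS, 107 and 102 CPM in ΔNFκB untreated, 68.0 and 68.7 CPM in WT DSS, and 114 and 104 CPM in WT untreated mice. The groups did not overlap in either genotype. Cox7a2l fell in both, by 0.81 ± 0.13 in ΔNFκB mice (adjusted p = 0.00228) and by 0.68 ± 0.13 in WT mice (adjusted p = 0.00519), and the difference between the responses was -0.13 ± 0.18 (adjusted p = 0.631).

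The sums of muscle markers, like Cox7a1, were lower in every DSS mouse than in every untreated mouse. The sum of 8 smooth muscle markers was 908 and 881 CPM in ΔNFκB DSS, 5387 and 5582 CPM in ΔNFκB untreated, 1279 and 1015 CPM in WT DSS, and 6663 and 3355 CPM in WT untreated mice, and all 8 fell in both genotypes. The sum of 10 skeletal muscle markers was 3.59 and 2.89 CPM in ΔNFκB DSS, 22.9 and 18.6 CPM in ΔNFκB untreated, 4.44 and 2.93 CPM in WT DSS, and 24.5 and 9.32 CPM in WT untreated mice, mostly from Ckm, the muscle creatine kinase. Of those 10, Myh1, Myh4, Tnnc2 and Actn3 were at 0 in ΔNFκB DSS mice, and Myh1, Myh4 and Tnnc2 in WT DSS mice. Beyond this split the orders differed. Of the WT untreated mice, the one with the higher muscle sums had the lower Cox7a1 value, 16.6 against 18.7 CPM. WT DSS mice had a higher mean smooth muscle sum than ΔNFκB DSS mice, 1147 against 894 CPM, and a lower mean Cox7a1, 2.52 against 4.52 CPM. Between these 2 groups neither Cox7a1 nor any of the 8 smooth muscle markers passed the threshold. Cox7a1 had only 37 and 16 counts in WT DSS mice. The part of muscle in the Cox7a1 values was not tested.

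Of the 13 tested complex IV members, 3 fell in ΔNFκB mice, near the 19.2% of all genes called lower there. In WT mice 12 fell, against 18.8% of all genes. The exception in WT mice was Cox6b2, the testis isoform of subunit 6b, at 0.307 to 2.00 CPM in all libraries. Cox7b, a small subunit, had 91.7 and 112 CPM in ΔNFκB DSS, 117 and 126 CPM in ΔNFκB untreated, 61.6 and 69.1 CPM in WT DSS, and 149 and 193 CPM in WT untreated mice. Its log2 fold change was -0.26 ± 0.16 in ΔNFκB mice (adjusted p = 0.23) and -1.39 ± 0.16 in WT mice, with the lowest adjusted p of the members (0.000686).

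In the other isoform sets of complex IV the ubiquitous form was the abundant one. Cox8a fell in both genotypes, by 0.45 ± 0.11 in ΔNFκB mice (adjusted p = 0.0158) and by 0.80 ± 0.11 in WT mice (adjusted p = 0.00169). In ΔNFκB mice Cox6a1, Cox6b1, Cox6c and Cox4i1 had log2 fold changes of -0.15, -0.16, -0.36 and -0.04, none past the threshold. In WT mice these 4 fell, by 0.76 ± 0.11, 0.97 ± 0.15, 1.04 ± 0.14 and 0.45 ± 0.12 (adjusted p = 0.00192, 0.00228, 0.00152 and 0.0247).

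Complex V makes ATP in its F1 head, held by a peripheral stalk and driven by a ring of c subunits. In ΔNFκB mice 2 of 17 members rose after DSS and none fell, where 16.2% of all genes were called higher and 19.2% lower. Of all genes, 18.8% were called lower in WT mice. In WT mice 13 of 17 fell: 3 of 5 in the head and central stalk, 4 of 4 in the peripheral stalk and 3 of 3 in the c ring, which 3 genes encode as the same mature protein. The small membrane subunits Atp5j2, Atp5l and Atp5mpl fell as well, and Atp5k did not pass the threshold. Of the 75-base stretches of Atp5l, 76.0% occur in other annotated genes, so its count is uncertain.

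Atp5h, subunit d of the peripheral stalk, had 97.5 and 116 CPM in ΔNFκB DSS, 97.4 and 105 CPM in ΔNFκB untreated, 65.3 and 72.2 CPM in WT DSS, and 121 and 147 CPM in WT untreated mice. The WT DSS mice were lowest. Atp5h had a log2 fold change of 0.08 ± 0.14 in ΔNFκB mice (adjusted p = 0.691) and -0.96 ± 0.14 in WT mice (adjusted p = 0.0018), with 36.5% of its 75-base stretches found in other annotated genes. Atp5mpl and Atp5c1, the central-stalk gamma subunit, fell by 1.02 ± 0.15 and 0.80 ± 0.13 in WT mice (adjusted p = 0.00184 and 0.0025).

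Within the c ring, Atp5g1 rose in ΔNFκB mice and fell in WT mice after DSS. It had 112 and 119 CPM in ΔNFκB DSS, 89.0 and 89.3 CPM in ΔNFκB untreated, 81.5 and 82.1 CPM in WT DSS, and 105 and 112 CPM in WT untreated mice. The ΔNFκB DSS mice were above the other groups and the WT DSS mice below them. The log2 fold change was 0.38 ± 0.10 in ΔNFκB mice (adjusted p = 0.0171) and -0.41 ± 0.10 in WT mice (adjusted p = 0.0132). Atp5g2 and Atp5g3 had log2 fold changes of -0.10 and 0.22 in ΔNFκB mice, short of the threshold, and fell by 0.35 ± 0.10 and 0.35 ± 0.11 in WT mice (adjusted p = 0.0262 and 0.0354). Atp5a1 had 928 and 1068 CPM in ΔNFκB DSS, 716 and 769 CPM in ΔNFκB untreated, 709.9 and 675 CPM in WT DSS, and 839 and 790.5 CPM in WT untreated mice. It rose by 0.43 ± 0.13 in ΔNFκB mice (adjusted p = 0.0345) and had a log2 fold change of -0.23 ± 0.13 in WT mice (adjusted p = 0.188).

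Without DSS, no member passed the threshold between ΔNFκB and WT mice by edgeR, DESeq2 or limma-voom, where edgeR called 0.0399% of all genes higher and 0.348% lower, or 0.388% in either direction. The unadjusted p was under 0.05 for 42 of the 79 members by edgeR, 34 by DESeq2 and 42 by limma-voom, all lower in ΔNFκB mice. The share of all genes with an unadjusted p under 0.05 is not given here, so these counts cannot be read against it. Of the 79 log2 fold changes 77 were below 0, with a median of -0.31 against 0.03 for all genes tested. The groups did not overlap for 60 members with ΔNFκB lower and for 1 with ΔNFκB higher, against 22.7% and 22.5% of all genes. By length, the median was -0.37 for the 18 members of at most 1000 exon bases and -0.38 for 152 other protein-coding genes of that size with a mean of at least 10 CPM. Above 1000 and up to 2000 bases it was -0.35 for 31 members and -0.22 for 702 other genes. Above 2000 and up to 4000 bases it was -0.30 for 20 members and -0.10 for 2503 other genes. Over 4000 bases it was -0.28 for 10 members and 0.05 for 5890 other genes. The lowest adjusted p was 0.128, for Ndufa9 of the Q module, which had 71.9 and 79.2 CPM in ΔNFκB untreated and 99.0 and 109 CPM in WT untreated mice.

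After DSS, 29 members were higher in ΔNFκB than in WT mice and none was lower, where 8.32% of all genes were called higher and 11.7% lower. The members' median log2 fold change was 0.37, and that of all genes tested was 0.03. Of the 79 members 74 were above 0, and the groups did not overlap for 66 in this direction, against 35.5% of all genes. By complex, 13 of 36, 3 of 4, 4 of 9, 3 of 13 and 6 of 17 members of complexes I to V were called. Ndufa12 had 35.3 and 47.6 CPM in ΔNFκB DSS and 22.1 and 22.3 CPM in WT DSS mice, a log2 fold change of 0.90 ± 0.16 (adjusted p = 0.00866). Cyc1 and Uqcrb of complex III were higher by 0.60 ± 0.11 and 0.80 ± 0.17 (adjusted p = 0.00871 and 0.0147), Cox5a of complex IV by 0.54 ± 0.11 (adjusted p = 0.0142), and Sdhc of complex II by 0.56 ± 0.13 (adjusted p = 0.0236).

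All 6 goblet cell markers were also higher in ΔNFκB DSS than in WT DSS mice, with a median log2 fold change of 1.45, and the difference of the DSS responses was above 0 and past the threshold for all 6, with a median of 2.04. Of the 8 absorptive colonocyte markers, 2 were higher and 2 lower in ΔNFκB DSS mice. Markers of other cells differed too. All 8 neutrophil markers were lower in ΔNFκB DSS mice, with a median of -2.49. So were 5 of 6 fibroblast, 6 of 8 endothelium and pericyte, 5 of 6 neuron and glia, and 2 of 6 tested adipocyte markers. Of 10 epithelium markers 5 were higher, with a median of 0.53. No tested muscle, macrophage or lymphocyte marker passed the threshold. The part of goblet cells or of these other cells in the subunit values was not tested.

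A fit without 1 library leaves 1 mouse in its group. The shares of all genes called in the fits that follow, here and for the difference of responses below, are not given. Their member counts are thus no result about the subunits in particular. This genotype contrast rested on single libraries more than the WT response did. It had 0 called members when either WT DSS replicate 2 or ΔNFκB DSS replicate 2 was left out, 4 without WT DSS replicate 1, 17 to 19 without ΔNFκB untreated replicate 1 or 2 or ΔNFκB DSS replicate 1, and 6 when libraries were scaled by their totals alone.

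The difference of the DSS responses, ΔNFκB minus WT, was above 0 and past the threshold for 46 members and below 0 for none, where 8.63% of all genes were called above and 9.07% below. Its median was 0.68 for members and -0.05 for all genes tested. Short genes outside the members moved as well: at most 1000 exon bases, the median was 0.63 for 18 members and 0.71 for 152 other protein-coding genes. Above 1000 and up to 2000 bases it was 0.66 for 31 members and 0.41 for 702 other genes, and over 4000 bases 0.75 for 10 members and 0.05 for 5890 other genes. This contrast shares its libraries with the others, and for the summed members the WT untreated mean was the highest of the 4 groups and the WT DSS mean the lowest. Single members differed from this order: Cyc1, Atp5a1, Atp5g1 and Sdhc had their highest mean in ΔNFκB DSS mice, and Uqcrq its lowest in ΔNFκB untreated mice. The called members were 22 of 36 in complex I, 4 of 4 in complex II, 6 of 9 in complex III, 4 of 13 in complex IV and 10 of 17 in complex V. The smallest p belonged to Ndufa9, Atp5g1, Ndufv2, Ndufa12, Ndufs5, Cox5a, Uqcrb and Atp5h. For Ndufs5, a membrane-arm subunit facing the intermembrane space, the difference was 1.08 ± 0.20 (adjusted p = 0.0133), from 18.2 and 20.8 CPM in ΔNFκB DSS, 17.4 and 17.7 CPM in ΔNFκB untreated, 13.7 and 12.8 CPM in WT DSS, and 24.9 and 25.4 CPM in WT untreated mice. The count of 46 was 0 without ΔNFκB DSS replicate 2, 4 without WT DSS replicate 2, 5 without ΔNFκB untreated replicate 1, 11 without WT DSS replicate 1, 16 without WT untreated replicate 2, 22 without ΔNFκB untreated replicate 2, 26 without ΔNFκB DSS replicate 1, and 18 with scaling by library totals.

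Genes that work with the subunits were counted from lists by function, to be read against the shares of all genes called after DSS, 16.2% higher and 19.2% lower in ΔNFκB mice and 17.2% higher and 18.8% lower in WT mice. Cytochrome c (Cycs), the carrier between complexes III and IV, had 135 and 171 CPM in ΔNFκB DSS, 73.7 and 80.3 CPM in ΔNFκB untreated, 88.2 and 84.8 CPM in WT DSS, and 91.7 and 169 CPM in WT untreated mice, and rose by 0.99 ± 0.25 in ΔNFκB mice (adjusted p = 0.0177). Of the 13 mRNAs of the mitochondrial genome, 5 fell in ΔNFκB mice and 12 in WT mice, with median log2 fold changes of -0.53 and -1.64. Their summed CPM per CPM of the nuclear members was 2.73 and 3.14 in ΔNFκB DSS, 4.87 and 4.47 in ΔNFκB untreated, 2.19 and 2.31 in WT DSS, and 4.35 and 4.64 in WT untreated mice. All DSS libraries were below all untreated libraries in this ratio. mt-Co3, a catalytic-core subunit of complex IV, changed by -0.86 ± 0.18 in ΔNFκB mice (adjusted p = 0.00742) and by -1.80 ± 0.18 in WT mice (adjusted p = 0.000394).

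Of 17 citric acid cycle genes, 2 rose and 2 fell in ΔNFκB mice, and 13 fell in WT mice. Suclg1 and Suclg2, subunits of succinyl-CoA ligase, fell by 1.09 ± 0.10 and 1.12 ± 0.11 in WT mice (adjusted p = 0.000233 and 0.00035). Of 14 complex I assembly factors, 2 rose in ΔNFκB mice and 2 fell in WT mice, and of 33 tested assembly factors of complexes II to V, 7 rose and 1 fell in ΔNFκB mice and 11 fell in WT mice. The counts of complex I assembly factors were near or below the shares of all genes. Of 20 membrane and import genes, 9 rose and 2 fell in ΔNFκB mice and 1 rose and 6 fell in WT mice. The one that rose in WT mice was Tomm40, the import channel, which rose in both genotypes, by 1.57 ± 0.14 in ΔNFκB mice (adjusted p = 0.000221) and by 0.95 ± 0.14 in WT mice (adjusted p = 0.00174). The chaperonin Hspd1 rose by 0.95 ± 0.15 in ΔNFκB mice (adjusted p = 0.00211).

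Of 19 tested regulators known from this gene programme, 4 rose and 4 fell in ΔNFκB mice, and 4 rose and 5 fell in WT mice, counts near the shares of all genes. Pprc1, a coactivator of the PGC-1 family, rose by 1.25 ± 0.16 in ΔNFκB mice (adjusted p = 0.00105). The difference between its responses in ΔNFκB and WT mice was 0.26 ± 0.23 and did not pass the threshold (adjusted p = 0.452). Esrrg, an estrogen-related receptor, fell by 1.97 ± 0.31 in ΔNFκB mice (adjusted p = 0.00226) and by 3.12 ± 0.34 in WT mice (adjusted p = 0.000512). Hnf4a, a nuclear receptor of the gut epithelium, had 641 and 714 CPM in ΔNFκB DSS, 643 and 809 CPM in ΔNFκB untreated, 387 and 287 CPM in WT DSS, and 746 and 821 CPM in WT untreated mice. Its log2 fold change after DSS was -0.10 ± 0.18 in ΔNFκB mice (adjusted p = 0.702) and -1.22 ± 0.18 in WT mice (adjusted p = 0.00211).

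Length was a feature the name pattern did not use, and short subunit genes had lower fold changes. Across the 79 members, Spearman's correlation between annotated exon bases and log2 fold change was 0.38 in ΔNFκB mice and 0.33 in WT mice. Across 9247 other protein-coding genes with a mean of at least 10 CPM it was -0.08 in ΔNFκB mice and 0.19 in WT mice. Genes share libraries, so these values are descriptions. In ΔNFκB mice the 18 members of at most 1000 exon bases had a median log2 fold change of -0.18, and 152 other genes of that size had 0.03. In WT mice these 18 members had a median log2 fold change of -0.86, and the 152 other genes had -0.60. Above 1000 and up to 2000 bases the WT medians were -0.70 for 31 members and -0.35 for 702 other genes. Above 2000 and up to 4000 bases they were -0.52 for 20 members and -0.18 for 2503 other genes. For the 10 members over 4000 bases the median in WT mice was -0.63, and for 5890 other genes of that size it was -0.03.

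**Figure D4:**
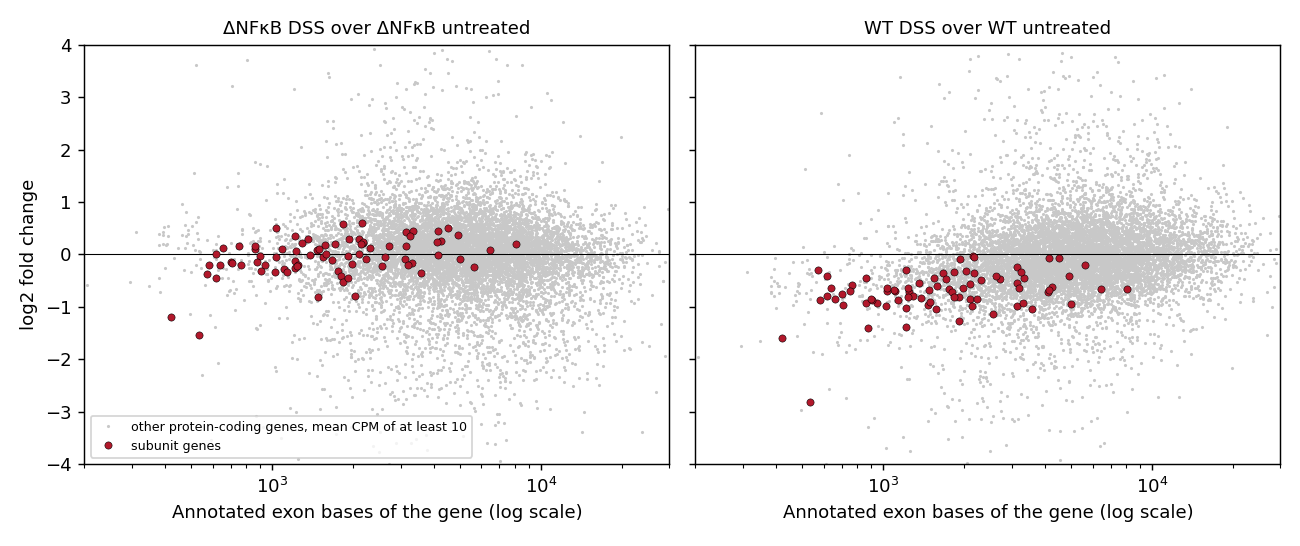
Log2 fold change after DSS (vertical axes, from -4 to 4, with genes beyond left off) against annotated exon bases (horizontal axes, log scale) in ΔNFκB mice (left) and WT mice (right). Red points are the 79 members and grey points 9247 other protein-coding genes; in WT mice the members lie below 0 at all lengths.

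In the plot against gene length, the 2 shortest tested members were Ndufa1 (419 exon bases) and Cox7a1 (535 exon bases), and they had the lowest fold changes in both genotypes. The next shortest tested member, Ndufa2 (572 exon bases), passed the threshold in neither genotype. RNA quality measures were not used here, and the part of length in the fold changes was not tested.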

How the data were processed

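RNA from the distal colon of 8 mice was sequenced as paired reads from a total RNA library kit, per the labels' protocols. Reads were processed with HISAT2 2.1, SAMtools 1.8 and featureCounts of Subread 1.6.2 on build mm10, per the submitters' processing notes. How strand and multiply matching reads were handled was not given in the sources used here. The authors deposited estimated counts per gene symbol, made with featureCounts per the submitters' processing notes: 18.8% of the values above 0 were not whole, and 41.9% among the members. A test for whole counts had been planned; the values were rounded to whole numbers after the 115 symbols on several lines (Atp5o among members) were summed.

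Library totals were 9229637 to 16935724, with TMM factors of 0.882 to 1.15. Of 30454 genes with a count, 17522 passed edgeR's expression filter. All 8 libraries entered 1 quasi-likelihood fit with 4 groups (R 4.3.3, edgeR 4.0.16, 4 residual degrees of freedom). Standard errors were obtained from each log2 fold change and its F statistic (absolute change over root F). P-values were adjusted by Benjamini-Hochberg over all genes, with a threshold of 0.05. Alternatives were DESeq2 1.42.0, limma-voom (limma 3.58.1), other scalings and filters, a term for sex, a replicate block and leaving out each library. The fit was tested on simulated data. RPKM was computed from annotated exon bases. Sequence sharing was measured as the percent of a gene's 75-base stretches found in other annotated genes, and overlapping genes cannot be told apart without strand.

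Genes named were, per complex, those with the smallest p past the threshold in each direction (3, or 2 for complexes II and III), the 8 smallest p in the difference of responses, the isoform sets, the 4 Sdh genes, untested members and the 2 smallest p of each other list; the text gives a selection of these, and others it names were chosen with values known. The members, lists and tests were chosen with earlier results of these data known. The labels do not say whether replicates came from separate litters or cages, so p-values measure the spread between these mice.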

Additional observations from a re-analysis of the deposited data

Results flagged for a closer look

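The responses to DSS differed between ΔNFκB and WT mice by a test of the difference itself (the interaction in edgeR's quasi-likelihood fit, Benjamini-Hochberg adjusted over all genes) for 46 members, all with the higher log2 fold change in ΔNFκB mice. Among those named, the difference on the log2 scale was 0.86 for Ndufa9, 1.18 for Ndufv2, 1.23 for Ndufa12 and 1.08 for Ndufs5 in complex I. In complex II it was 0.66 for Sdha, 0.76 for Sdhb, 0.68 for Sdhc and 0.70 for Sdhd. It was 1.26 for Uqcrb in complex III, and 0.86 for Cox5a, 0.61 for Cox6a1 and 0.81 for Cox6b1 in complex IV. In complex V it was 0.78 for Atp5g1, 0.57 for Atp5g3 and 1.04 for Atp5h. The adjusted p of these 15 genes ran from 0.0115 for Ndufa9 to 0.0423 for Sdhc. Over all genes tested, 8.63% were called above 0 and 9.07% below in this test. The calls depended on single libraries, as given above, and DSS and sex cannot be told apart within the ΔNFκB genotype.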

How the results depend on the processing

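Leaving out 1 library at a time gave 4 to 19 called members for DSS in ΔNFκB mice, 43 to 64 for DSS in WT mice, 0 to 1 for genotype without DSS, 0 to 30 for genotype after DSS and 0 to 54 for the difference of responses, against 13, 65, 0, 29 and 46 with all libraries. Scaling by library totals gave 6 for genotype after DSS and 18 for the difference, and a term for sex gave 4 for DSS in ΔNFκB mice. That term was estimated from the WT untreated mice alone, the only group with both sexes. Over all 79 members and the 18 or 19 alternatives run per comparison, none of the called members changed sign, while 35 of 66, 7 of 14, 12 of 79, 19 of 50 and 5 of 33 uncalled members did so in at least 1. Single values are given only for genes of the naming rule, and those that changed sign follow. For DSS in ΔNFκB mice, Sdha was 0.0040 with RLE factors and with DESeq2, 0.0084 without a filter and 0.00086 with only the groups compared; with the sex term Atp5g2 was 0.0066, Cox4i1 0.19, Cox6a1 0.081, Cox6b1 0.19, Cox7a2 0.24, Sdha 0.082 and Sdhb 0.0089. For genotype without DSS, the sex term gave 0.092 for Cox6b2 and 0.00095 for Cox7a2l. For genotype after DSS, Cox8a was -0.00240 with RLE factors and with DESeq2, -0.0695 with upper quartile factors, -0.23 with library totals, -0.016 without a filter, -0.00302 with a filter at 1 CPM, -0.042 without antigen receptor genes, mitochondrially encoded genes and rRNA genes, and -0.051 with only the groups compared. Atp5g2 was -0.0288, -0.19, -0.00231 and -0.012 with upper quartile factors, library totals, those genes left out and only the groups compared, and Cox7a2 was -0.033 with library totals. In the difference, Atp5g2 was -0.027 with library totals and Cox6b2 -0.21 with the sex term. Over the libraries left out, Cox4i1 ran from -0.10 to 0.058, Cox6b2 from -1.64 to 0.42, Sdha from -0.11 to 0.10 and Sdhb from -0.21 to 0.044 for DSS in ΔNFκB mice. Cox4i1 ran from -0.22 to 0.012 and Cox6b2 from -1.01 to 0.065 for genotype without DSS, Cox6b2 from -1.53 to 0.60 and Cox8a from -0.060 to 0.055 for genotype after DSS, and Cox6b2 from -0.98 to 1.13 and Cox7a2l from -0.31 to 0.047 for the difference. Causes of these changes were not tested. The shares of all genes called in these alternatives are not given, so the counts are no result about the subunits in particular.

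Deviations of same-numbered mice correlated at -0.112 to 0.266, highest between ΔNFκB untreated and ΔNFκB DSS mice. Such values, from 2 mice a group, cannot exclude a shared litter or cage, which the labels do not give. With a replicate block the counts of called members were 13, 65, 0, 31 and 47. With 2 mice a group and 4 residual degrees of freedom, members near the threshold depend on single libraries.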
